A study of Mus musculus with 8 samples.

Results

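The 10 genes described here, of 2 interferon-inducible families on mouse chromosome 7, were measured in tumor-educated macrophages (TEMs) with and without *Phgdh*. They are the TRIM genes *Trim34a*, *Trim12a*, *Trim34b*, *Trim12c*, *Trim30b*, *Trim30c*, *Trim30a* and *Trim30d*, and the GVIN genes *Gvin1* and *Gm4759*. They were picked by symbol out of the 18635 genes of the deposited table, and all 10 were found there. The list was drawn up because these genes differed between the genotypes in these same samples. Their differences between genotypes are therefore given as a description, without a test. TEMs were bone marrow-derived macrophages (BMDMs) from mice aged 6 to 8 weeks, bred on a C57BL/6 background. They were grown for 7 days and then kept for 24 h in AE17-TCM, medium taken from cultures of the mouse mesothelioma line AE17. RNA-seq covered 2 genotypes with 4 samples each, *Phgdh* fl/fl TEMs (called control samples here) and *Phgdh* fl/fl *Cx3cr1*-Cre TEMs (called Cre samples). Both genotypes carry the floxed *Phgdh* alleles, and only the Cre genotype has Cre recombinase, which is driven from the *Cx3cr1* locus in monocytes and macrophages. The Cre allele, the loss of *Phgdh* and any other inherited difference between the genotypes thus come together. Their parts in any difference cannot be told apart. The paper describes mice of the 2 genotypes as littermates. *Phgdh* lies on chromosome 3 and *Cx3cr1* on chromosome 9. The paper calls the 4 samples of a genotype biologically independent. Neither it nor the labels say whether they came from separate mice, so the spread between them may leave out differences between mice.

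TRIM proteins are E3 ubiquitin ligases built from a RING finger, a B-box and a coiled coil, and many of them restrict viruses or tune innate immune signalling. TRIM30a, the best known of the mouse cluster, is induced by Toll-like receptor ligands and interferon, and it dampens NF-κB activation by promoting the degradation of the adaptors TAB2 and TAB3. The mouse genes *Trim12a* and *Trim12c*, together with the neighbouring *Trim5* and the TRIM30 genes, belong to the rodent branch of the family of human *TRIM5*, a restriction factor of retroviruses. GVIN genes encode very large GTPases that are induced by interferons.

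The 8 TRIM genes lie within 0.263 Mb, and the 2 GVIN genes follow farther along the chromosome, so that all 10 span 2.18 Mb in the mm10 build. *Trim34a* (chr7:104244457-104262234) and *Trim34b* (chr7:104329471-104336909) are on the plus strand. On the minus strand lie *Trim12a* (chr7:104299894-104315466) and *Trim12c* (chr7:104338754-104353362). The TRIM30 genes follow on that strand in the order *Trim30b* (chr7:104355382-104369884), *Trim30c* (chr7:104382065-104400837), *Trim30a* (chr7:104409025-104465193) and *Trim30d* (chr7:104470014-104507849). *Gvin1* (chr7:106156556-106215326) and *Gm4759* (chr7:106417848-106424469) are also on the minus strand. GENCODE M21 lists 9 of the genes as protein coding and *Gm4759* as an unprocessed pseudogene.

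Several of these genes are near copies of each other, which decides how far a 75-base read can tell them apart. The first 75 coding bases of the annotated transcripts are shown for the 2 sets of copies whose members moved in different directions. Capitals mark the bases of *Trim34b* that differ from *Trim34a*, and the bases of *Trim12c* and *Trim5* that differ from *Trim12a*.
Trim34a: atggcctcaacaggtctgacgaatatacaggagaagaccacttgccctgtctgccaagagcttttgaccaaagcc
Trim34b: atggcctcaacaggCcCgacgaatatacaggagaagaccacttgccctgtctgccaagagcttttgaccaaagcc
Trim12a: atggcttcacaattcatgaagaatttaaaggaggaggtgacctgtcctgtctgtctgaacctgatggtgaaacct
Trim12c: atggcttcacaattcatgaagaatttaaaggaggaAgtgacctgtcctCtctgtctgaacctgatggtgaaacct
Trim5: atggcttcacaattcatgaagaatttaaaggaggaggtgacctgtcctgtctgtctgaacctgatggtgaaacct
In this stretch *Trim34b* differed from *Trim34a* at 2 bases, *Trim12c* differed from *Trim12a* at 2 bases, and *Trim5* differed from *Trim12a* at 0 bases. Over whole transcripts, *Trim34a* and *Trim34b* were 98.7% identical across 1827 aligned bases. The identity of *Trim12a* was 96.0% with *Trim12c* over 967 bases and 97.1% with *Trim5* over 928 bases. *Trim30a* and *Trim30d* were less alike, at 83.0% over 1998 bases. *Gvin1* was 99.97% identical to its neighbour *Gm4070*, which the deposited table calls *Gvin2*, over 9005 bases, and 86.8% identical to *Gm4759* over 4857 bases.

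The share of 75-base windows of a gene's transcripts that also occur in a transcript of another gene, on either strand, varied widely. It was 98.3% for *Gvin1*, of which 97.5 percentage points were windows held by *Gm4070*, so nearly no read of *Gvin1* can be told from one of *Gm4070* by its letters. For *Trim34a* it was 48.6%, with 29.5% shared with *Trim34b* and the rest with *Gm47248*, an antisense gene over its end. *Trim34b* shared 42.5% of its windows, all of them with *Trim34a*, and *Trim12c* shared 17.3%, mainly with *Trim5*. The other 6 were easier to tell apart, with 5.58% for *Trim12a*, 5.40% for *Trim30d*, 4.98% for *Trim30a*, 0.39% for *Trim30b*, 0.0458% for *Gm4759* and 0% for *Trim30c*. How the counting treated reads that match several genes, and which strand setting it used, is not given in the sources used here. The values of *Gvin1*, *Trim34a*, *Trim34b* and *Trim12c* carry that limit.

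**Figure D1:**
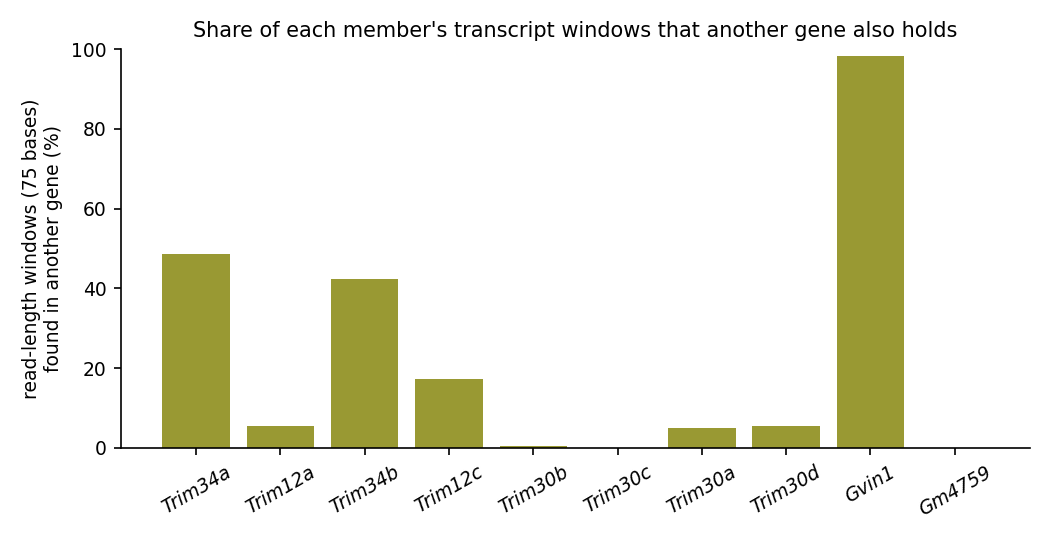
Share of the 75-base windows of each gene's annotated transcripts that also occur in a transcript of another gene (y axis, percent), with the 10 genes in chromosome order on the x axis. The bar of *Gvin1* reaches 98.3%, those of *Trim34a* and *Trim34b* 48.6% and 42.5%, and the others lie at 17.3% or less.

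The starts of the 4 genes of the TRIM34 and TRIM12 pairs are shown because the members of each pair moved in different directions. Each run is taken from RefSeq (build GRCm38.p6, the same assembly as mm10), 5′ to 3′ on the strand of the gene, from 250 bases before the RefSeq start to 30 bases after it, at chr7:104244207-104244486 (plus strand) for *Trim34a*, chr7:104329221-104329500 (plus) for *Trim34b*, chr7:104315466-104315745 (minus) for *Trim12a* and chr7:104353320-104353599 (minus) for *Trim12c*. Capitals mark the letters GAAA, any 2 bases and again GAAA, read on either strand, the core of the interferon-stimulated response element.
Trim34a: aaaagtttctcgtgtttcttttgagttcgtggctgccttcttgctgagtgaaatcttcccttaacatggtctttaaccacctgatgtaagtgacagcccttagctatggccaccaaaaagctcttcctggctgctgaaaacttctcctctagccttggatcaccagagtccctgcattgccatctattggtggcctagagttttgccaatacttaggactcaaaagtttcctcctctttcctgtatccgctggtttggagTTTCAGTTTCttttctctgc
Trim34b: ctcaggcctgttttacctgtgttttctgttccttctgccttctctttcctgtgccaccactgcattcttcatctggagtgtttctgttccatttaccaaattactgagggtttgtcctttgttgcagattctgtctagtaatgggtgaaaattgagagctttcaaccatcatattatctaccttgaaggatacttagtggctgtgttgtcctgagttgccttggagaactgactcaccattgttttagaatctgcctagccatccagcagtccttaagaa
Trim12a: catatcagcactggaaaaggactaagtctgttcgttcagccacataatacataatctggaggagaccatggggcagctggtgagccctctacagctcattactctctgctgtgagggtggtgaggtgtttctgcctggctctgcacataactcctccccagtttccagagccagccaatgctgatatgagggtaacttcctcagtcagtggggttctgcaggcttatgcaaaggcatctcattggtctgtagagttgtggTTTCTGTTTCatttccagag
Trim12c: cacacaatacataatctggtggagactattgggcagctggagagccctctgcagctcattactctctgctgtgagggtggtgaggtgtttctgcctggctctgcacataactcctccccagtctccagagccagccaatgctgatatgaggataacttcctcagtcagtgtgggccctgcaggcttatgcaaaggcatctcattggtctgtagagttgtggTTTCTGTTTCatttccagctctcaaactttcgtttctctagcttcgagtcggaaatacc
A match was present in the 300-base promoters of *Trim34a*, *Trim12a*, *Trim12c*, *Trim30a* (at both of its listed starts) and *Trim30d*, and in that of *Trim5*. None was found in those of *Trim34b*, *Trim30b* and *Trim30c*. The neighbouring GVIN gene *Gm1966* had a match 163 bases before its RefSeq start, which lies outside its GENCODE position. Of all 32851 RefSeq promoters of the same length, 3.44% held such letters. The match lay 10 bases after the start in *Trim34a* and in *Trim12a*, 29 bases before it in *Trim12c* and 41 bases before it in *Trim30d*. The bases next to the match are the same in the runs of *Trim12a* and *Trim12c*, so their distances differ by where RefSeq places the start. The letters TTCNNNGAA of the gamma-activated site, which read the same on both strands, were found in the promoter of *Trim30c* and in 8.3% of all promoters. *Gvin1* and *Gm4759* had no entry in the table of promoters. A match is a string of letters and was not tied to binding or to the values below.

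Reads counted on genes, recovered from the deposited values, were between 38219563 and 47027420 per sample. The target gene *Phgdh*, the first enzyme of serine synthesis, had a normalized count (reads divided by the size factor of the sample) of 117 ± 9.82 (SD, n = 4) in control samples and 27.1 ± 9.39 in Cre samples, without overlap (exact two-sided permutation test, p = 0.029, the smallest that 4 against 4 samples allow). *Cx3cr1* fell from 1075 ± 94.2 to 659.8 ± 32.2 (limma, adjusted p = 1.87e-09). All 7 macrophage markers were found, and their summed levels overlapped between the genotypes. Of these, *Fcgr1* fell with a log2 fold change of -0.40, *Itgam* with -0.19 and *Adgre1* with -0.084 (limma, adjusted p = 7.40e-12, 7.03e-06 and 5.58e-03), while *Csf1r*, *Cd68*, *Lyz2* and *Mertk* did not pass. Their part in the differences given here was not tested. The 4 T cell and 4 erythroid markers had no row, and the B cell and mesothelial markers stayed under a summed normalized count of 6. Of the 5 neutrophil and progenitor markers *S100a8* alone had a row, at 467 to 575 in control samples and 576 to 631 in Cre samples, while *Ly6g*, *S100a9*, *Mpo* and *Elane* had none. Its part in the differences given here was not tested. The summed levels of the NK cell, dendritic cell and fibroblast markers overlapped and were at most 43.8. In bulk RNA, fewer cells of a kind and less RNA per cell cannot be told apart.

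The TRIM34 copies moved in opposite directions. The normalized counts of *Trim34a*, an interferon-inducible TRIM gene whose human counterpart *TRIM34* takes part in retroviral restriction, were 1043, 1190.1, 1114 and 1151 in control samples 1 to 4. In Cre samples 1 to 4 they were 642, 618, 574 and 577, so every Cre sample was below every control sample. Its mean was 1125 ± 62.5 in control and 603 ± 33.2 in Cre samples, which is 53.6% of the control level, a log2 fold change of -0.90 with a standard error of 0.050 on the log2(normalized count + 1) scale. *Trim34b* was close to absent in control samples, at 2.79, 3.68, 6.20 and 1.91, from 15 reads in all 4. In Cre samples it reached 161, 151, 133 and 132, from 555 reads. The ratio of its summed reads, corrected for size factors, was 40.0 with a 95% exact interval of 24.1 to 72.0, which covers counting error only. Its fitted log2 fold change of 5.04 ± 0.26 (SE) depends on the pseudocount. *Trim34b* made up between 0.166% and 0.554% of the summed normalized count of the pair in control samples and between 18.7% and 20.0% in Cre samples. The sum of both copies was 1128 ± 62.5 in control and 747 ± 47.1 in Cre samples, a ratio of 0.662. The fall of *Trim34a* was thus larger than the gain of *Trim34b*, and the sums did not overlap.

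The TRIM12 copies differed too. *Trim12a*, annotated with a coding part of 891 bases against 1491 for *Trim12c* and *Trim5*, had 1134, 1127, 1102 and 1177 in control samples and 624, 591, 591 and 609 in Cre samples. The Cre samples lay at 53.2% of the control level (1135 ± 31.4 and 604 ± 16.1), a log2 fold change of -0.91 with a standard error of 0.042. *Trim12c* went slightly the other way, from 2054, 1997, 2060.2 and 1963 in control to 2211, 2265, 2295.5 and 2193 in Cre samples. All 4 Cre samples were above all 4 control samples, but the log2 fold change was only 0.15 with a standard error of 0.030. The sum of *Trim12a* and *Trim12c* was 3154 ± 27.7 in control and 2845 ± 35.4 in Cre samples, a ratio of 0.902. *Trim5*, which lies between *Trim34a* and *Trim12a* and is not among the 10, had 655 ± 28.2 in control and 323 ± 7.25 in Cre samples. It fell with a log2 fold change of -1.01 (limma, adjusted p = 5.25e-12), close in size to the values of *Trim12a* and *Trim34a* on either side of it. *Trim5* shares 20.6% of its windows with other genes, 12.4% with *Trim12c*, so its value carries the limit on shared reads too.

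Among the TRIM30 genes, *Trim30d* showed the largest difference and *Trim30a* one of the smallest. *Trim30a* had 9036, 8993, 9336 and 8445 in control samples and 8349, 8469.9, 8345 and 8203 in Cre samples. The genotypes overlapped, since control sample 4 was below Cre sample 2, and the log2 fold change was -0.10 with a standard error of 0.027. *Trim30d*, a paralog with the same domain order, had 3015, 3111, 3188 and 2905 in control samples and 2034, 1890.4, 1953 and 1868 in Cre samples. Its genotypes did not overlap, and its level in Cre samples was 63.4% of the control level (log2 fold change -0.66, SE 0.034). *Trim30b* had 88.3, 75.5, 84.8 and 70.6 in control and 59.6, 54.0, 66.1 and 66.1 in Cre samples. It did not overlap either, although its highest Cre sample was close to its lowest control sample (log2 fold change -0.37, SE 0.14). For *Trim30c* the range of the control samples lay inside that of the Cre samples, with 80.0, 78.2, 67.2 and 79.2 in control and 79.9, 76.9, 65.1 and 102 in Cre samples. Its log2 fold change of 0.073 (SE 0.14) rested on Cre sample 4 and was -0.0435 without it. The 4 TRIM30 genes summed to 12163 ± 488 in control and 10421 ± 127 in Cre samples, a ratio of 0.857.

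The GVIN pair also moved in opposite directions. *Gvin1* had 272, 251, 233 and 224 in control samples and 120.4, 119.5, 118.9 and 116.7 in Cre samples, with no overlap. The Cre samples were within a very narrow range, at 48.5% of the control level (log2 fold change -1.03, SE 0.088). Because *Gvin1* shares nearly all of its windows with *Gm4070*, only reads from the small unshared rest can be placed on *Gvin1* by sequence. Whether reads that match both genes entered its value is not given in the sources used here. The 2 genes differed in their values. *Gm4070* had 279 in control and 257 in Cre samples, which is 92.1% of its control level. It did not pass the test (log2 fold change -0.12, limma, adjusted p = 0.20). *Gm4759*, listed as a pseudogene, was read 3 times in all control samples, at normalized counts of 0, 0.92, 2.07 and 0. In Cre samples it had 1028 reads, at 269, 261, 282 and 254. The Cre samples lay close together, with an SD of 11.9 around a mean of 266. The ratio of summed reads was 371, with a 95% exact interval of 126 to 1800 for counting error. Unlike *Gvin1* and the TRIM34 copies, *Gm4759* shared 0.0458% of its windows with other genes, so that its reads can be placed by sequence. The sum of *Gvin1* and *Gm4759* was 246 ± 21.1 in control and 385 ± 12.8 in Cre samples, a ratio of 1.57. With *Gm4070*, *Gm8995*, *Gm1966*, *Gm8979* and *Gm8989* added, the sum fell from 20196 ± 1446 to 17630 ± 343, a ratio of 0.873. Of that larger sum, *Gm8995* alone held 18714 in control and 16343 in Cre samples.

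**Figure D2:**
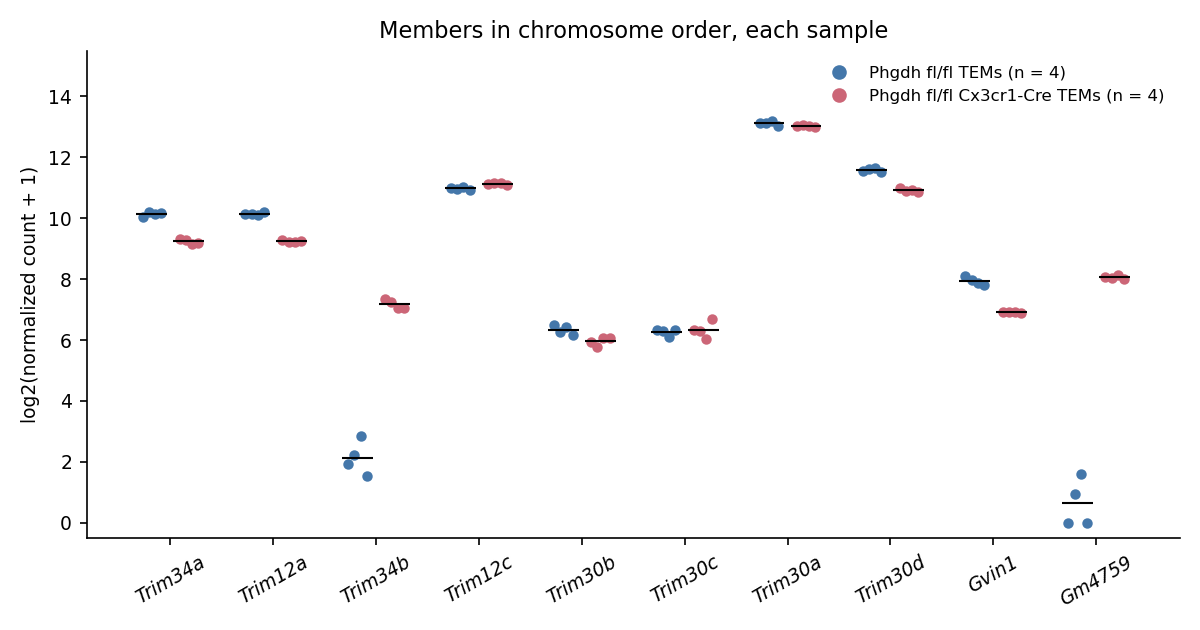
Expression of the 10 genes in chromosome order (x axis) as log2(normalized count + 1) on the y axis, with a point for each of the 4 control samples (blue) and 4 Cre samples (red) and a line at each mean. *Trim34b* and *Gm4759* sit near the bottom of the axis in control samples and are far higher in Cre samples, *Trim34a*, *Trim12a*, *Trim30d* and *Gvin1* are lower in Cre samples, and *Trim30c* and *Trim30a* overlap.

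Of the 10 genes, 8 had genotypes that did not overlap, 3 higher (*Trim34b*, *Trim12c* and *Gm4759*) and 5 lower in Cre samples (*Trim34a*, *Trim12a*, *Trim30b*, *Trim30d* and *Gvin1*). Over all 13629 genes tested, 36.7% did not overlap, 18.4% higher and 18.2% lower, and since the 10 were chosen for this difference nothing is read from the comparison. *Gm4759* had the 3rd highest and *Trim34b* the 6th highest log2 fold change of all genes tested at a pseudocount of 1, among 7 genes over 4 (0.0514% of those tested). With so few control reads, these ranks depend on the pseudocount. Both passed the filter of a mean normalized count of at least 10 only through their Cre samples. The 8 TRIM genes together fell from 16445 ± 485 to 14013 ± 184, a ratio of 0.852, in sums that did not overlap. The largest falls in mean normalized count were those of *Trim30d* (1118), *Trim30a* (611), *Trim12a* (531) and *Trim34a* (522), against gains of 222 for *Trim12c* and 141 for *Trim34b*.

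The sums, shares and falls above are of normalized counts, which also depend on the length of a gene. Levels were ranked between genes per length, as FPKM computed from the recovered reads and the joined length of all annotated exons. In control samples *Trim30a* led with 50.3 FPKM (range 47.4 to 52.3), followed by *Trim30d* at 18.8, *Trim12c* at 12.5 and *Trim34a* at 10.0. *Trim12a* had 4.53 FPKM over 5781 joined exon bases, whereas its longest coding transcript has 1531 bases, so its place in the order depends on the length used. Below them came *Trim30c* at 1.02, *Gvin1* at 0.628, *Trim30b* at 0.245, *Trim34b* at 0.0455 and *Gm4759* at 0.0026 FPKM. No gene's range over the 4 control samples overlapped that of the next in this order. In Cre samples *Trim30a* again led with 47.3 FPKM, but *Trim12c* at 13.97 was now above *Trim30d* at 12.02. *Trim34a* at 5.42 and *Trim12a* at 2.44 kept their places in the order. *Trim34b* moved from the 9th to the 6th place with 1.82 FPKM, and *Gm4759* from the last to the 8th with 0.938. The only neighbours in the Cre order whose ranges overlapped were *Trim30c* (0.886 to 1.39) and *Gm4759* (0.893 to 0.993). *Gvin1* at 0.308 and *Trim30b* at 0.190 FPKM came last. The place of *Trim30b* also depends on the length used, since its joined exons have 7527 bases and its longest coding transcript 4287. For *Gvin1*, *Trim34a* and *Trim34b* the full length was used although many of their windows are shared. If reads from shared windows were not counted, the levels of these 3 are too low beside the others.

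**Figure D3:**
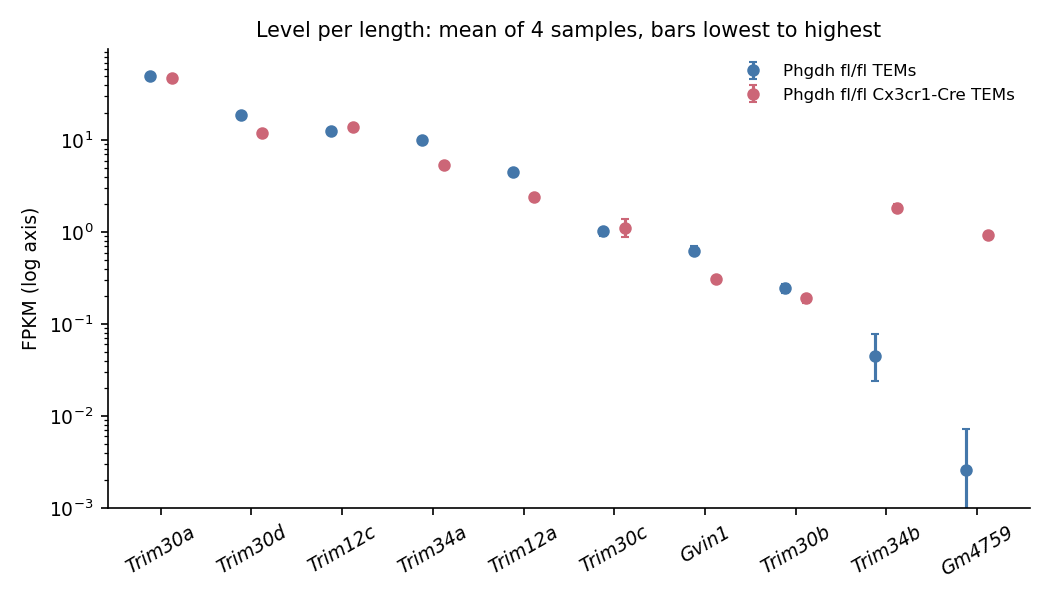
Level per length of the 10 genes (FPKM, log axis), ordered by their mean in control samples, with points for the mean of 4 samples per genotype and bars from the lowest to the highest sample. The bar of *Gm4759* in control samples runs off the axis because its lowest samples are at 0. In Cre samples *Trim34b* and *Gm4759* stand at 1.82 and 0.938 FPKM, above *Gvin1*.

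The genes around the 10 were also compared, by limma over all genes tested. Inside the stretch and within 1 Mb on either side of it lay 37 other genes of the table, of which 22 were tested. Of these, 11 passed an adjusted p of 0.05, 5 higher and 6 lower in Cre samples. The share of 50.0% stands beside 41.0% over all genes tested, of which 20.8% were higher and 20.3% lower. Within 5 Mb it was 61 of 101 tested genes (60.4%), 37 higher and 24 lower. Changes over 2-fold were found for 10 of these 101 genes (9.90%), against 1.12% of the 13518 tested genes elsewhere, 1.14% of the rest of chromosome 7 and 1.20% over all genes tested. These shares are a description, since the stretch was chosen for its changed genes. The 2 of these that lay within the stretch were *Trim5* and *9130208D14Rik*, an unprocessed pseudogene in GENCODE M21. *9130208D14Rik* rose from 59.1 ± 1.84 to 322 ± 5.58 (log2 fold change 2.43, adjusted p = 3.22e-14). It is 89.5% identical to *Gvin1* over 7301 bases and shares 38.4% of its windows with other genes. Just beyond *Gm4759* lay 2 other GVIN genes that fell. *Gm1966* fell from 942.8 to 629.6 (log2 fold change -0.58, adjusted p = 4.72e-08), and *Gm8995* from 18714 to 16343 (log2 fold change -0.19, adjusted p = 1.16e-04).

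The other 8 large changes lay between *Trim34a* and a point 5 Mb before it. *Slco2b1*, an organic anion transporter, rose from 5.49 ± 1.32 to 80.5 ± 1.17 (log2 fold change 3.67, adjusted p = 6.45e-11). It passed the filter only through its Cre samples, so that its place among the large changes follows from them. *Kcne3*, a potassium channel subunit, *Stard10*, a lipid transfer protein, *Tpbgl* and *Lrrc51* rose with log2 fold changes of 1.97, 1.85, 1.52 and 1.13. The folate receptor genes *Folr2* and *Folr1* and the miRNA gene *Gm22655* fell with log2 fold changes of -1.28, -1.16 and -1.22. *Folr2*, a marker of tissue-resident macrophages, had 25577 ± 763 in control and 10563 ± 131 in Cre samples.

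**Figure D4:**
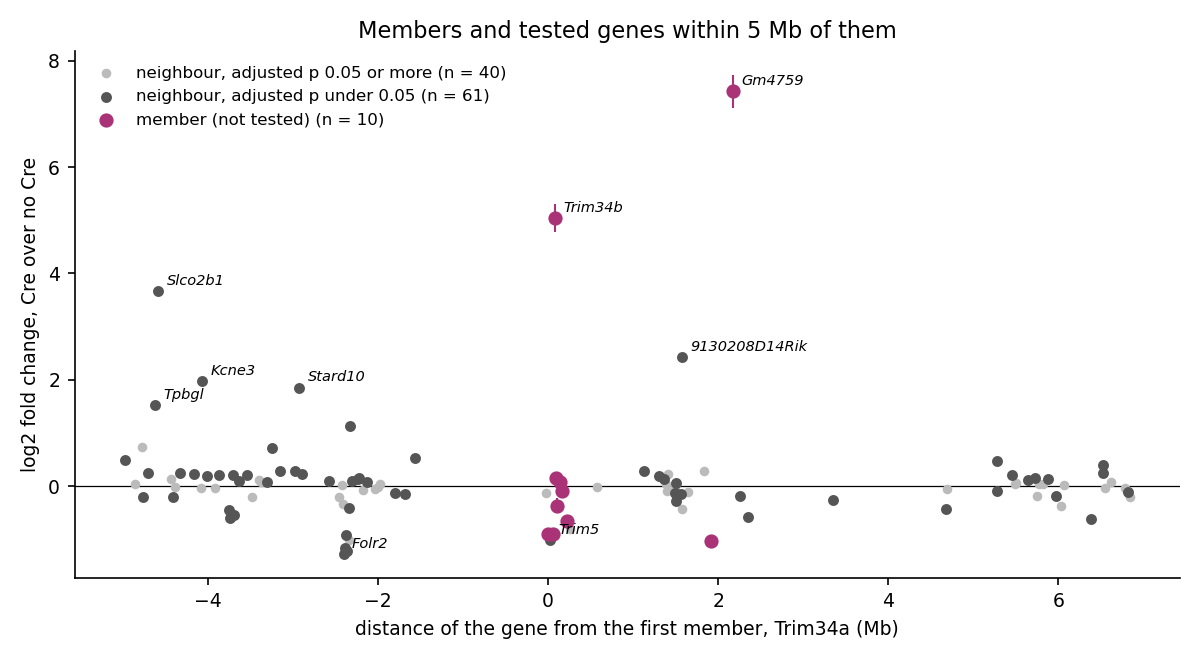
Log2 fold change (Cre over control samples, n = 4 each, y axis) of the 10 genes (purple, bars are standard errors) and of the 101 tested genes within 5 Mb of them (dark grey where limma's adjusted p was under 0.05, light grey otherwise), against the distance of the gene's start from that of *Trim34a* in Mb (x axis). *Gm4759*, *Trim34b*, *Slco2b1* and *9130208D14Rik* stand highest, while most of the others lie near 0.

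Other genes of the same families and of the interferon pathway, a few of them near the 10 and most elsewhere in the genome, were compared in the same way. Of 43 other TRIM genes 35 were tested and 20 passed, 13 higher and 7 lower, with a median log2 fold change of 0.037 against -0.0018 over all genes. The largest were *Trim5*, *Trim7* (0.93, adjusted p = 1.78e-04) and *Trim9* (0.87, adjusted p = 6.56e-04). Of 24 tested GVIN genes and interferon-inducible GTPases 13 passed, 9 higher and 4 lower (median 0.14). Guanylate-binding proteins, which attack the vacuoles of intracellular pathogens, were among the largest: *Gbp5* rose by 0.75 and *Gbp4* by 0.75 on the log2 scale (adjusted p = 5.59e-05 and 2.82e-05), while *Gm1966*, on chromosome 7, fell. Among 65 interferon-stimulated genes 34 passed, 10 higher and 24 lower (median -0.055). The largest there were *Ifit1bl1* (0.73, adjusted p = 2.36e-04), *Ifi205* (0.43, adjusted p = 7.42e-03) and *Ms4a4c* (0.40, adjusted p = 7.32e-06), all higher, although the list leaned to lower values. The shares passing in these 3 lists, 57.1%, 54.2% and 52.3%, stand beside 41.0% over all genes. Without the genes within 5 Mb, 16 of 30 other TRIM genes (53.3%) and 11 of 20 GVIN genes and GTPases (55.0%) passed.

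Upstream of these genes, 13 of 22 tested interferon ligands, receptors and signalling genes passed, 4 higher and 9 lower (median -0.067). Their share of 59.1% stands beside 41.0% over all genes. *Socs3*, a feedback inhibitor of cytokine signalling, rose by 0.47 on the log2 scale, and the kinase gene *Jak2* rose by 0.20 (adjusted p = 2.14e-08 and 1.93e-05). Those that fell included *Irf8* and *Ptpn6*, with log2 fold changes of -0.20 and -0.17 (adjusted p = 8.40e-07 and 3.11e-06). Some genes of this list are counted among the interferon-stimulated genes too. Of the 10 genes around TRIM30a function, 4 passed, 2 higher and 2 lower (median -0.0033). That share of 40% is near the 41.0% over all genes, so nothing is read from it. *Tlr4*, the receptor of lipopolysaccharide, rose by 0.22 (adjusted p = 3.09e-05), and *Traf6*, a ubiquitin ligase downstream of it, by 0.18 (adjusted p = 3.69e-04). The adaptor gene *Myd88* fell with a log2 fold change of -0.13 (adjusted p = 2.41e-03). *Tab2* and *Tab3*, which encode the targets of TRIM30a, had log2 fold changes of 0.0051 and 0.046 and did not pass (adjusted p = 0.88 and 0.41). In these 5 lists *Trim5* was the only gene that passed with a change over 2-fold.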

How the data were processed

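TEM samples, 4 per genotype as the labels give them, were sequenced as single-end 75-base reads. The authors aligned the reads to mm10 with TopHat2 and obtained gene counts with HTSeq 0.6. What they deposited for each sample is a signal, the count over the size factor of that sample, which the methods call FPKM. A mean signal per gene was deposited as well. The deposited table also holds the authors' DESeq2 comparison, namely a log2 fold change, its standard error, a Wald score, a p-value and an adjusted p-value, none of which was used here. There were no columns of other samples.

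Dividing by the smallest step gave whole reads for 100% of the 144353 values above 0, all within 0.00029 of a whole number. Main test: limma 3.58.1 (R 4.3.3), fitted without covariates by lmFit, then eBayes (trend on), two-sided with Benjamini-Hochberg adjustment, on log2(normalized count + 1). Genes needed a mean normalized count of 10 or more, which left 13629, and passed at an adjusted p under 0.05. edgeR 4.0.16 and DESeq2 1.42.0 were run on the recovered reads, and other alternatives were another pseudocount, filter and scaling, FPKM, a replicate block and leaving out each sample. The fits were tested on simulated data, in which 200 genes were changed. Transcripts and positions came from GENCODE M21 (18629 of 18635 genes matched), identities from blastn 2.17.0 and promoters from RefSeq, where 8 of the 10 genes had an entry. Protein sequences were not used here.

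Named were the 10 genes, *Phgdh*, *Cx3cr1*, other genes within 5 Mb that passed and changed by over 1 on the log2 scale, and in each list the 3 passing genes with the largest change, beside others the text needed. The result of 1 listed gene is not reported here on its own. The 10 genes and the lists were chosen with earlier results of these data known. Replicates were no copies of each other (chi-square per gene of 1.79 to 6.20 between samples of a genotype), and all 8 were used. Depth limits the precision of *Trim34b* and *Gm4759* in control samples.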

Additional observations from a re-analysis of the deposited data

Results flagged for a closer look

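In 40 groups of 4 samples, formed by the 2 genotypes for the 10 genes and for the 10 large changes within 5 Mb, the distance of the highest or lowest sample to its nearest neighbour was set against the range of the group. Dixon's 95% limit for 4 samples was passed in 3 groups, and chance passes it in about 1 of 20. *Trim30c* in control sample 3 had a normalized count of 67.2 against 78.2 to 80.0 in the others (gap over range 0.865). *Tpbgl* in control sample 1 had 21.4 against 12.4 to 13.4 (0.885). *Folr1* in control sample 3 had 62.0 against 38.1 to 42.0 (0.838). All 3 genes had normalized counts under 100 in control samples.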

How the results depend on the processing

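Of 282 values under alternatives, 272 kept their direction and stayed within the spread between replicates or, for counts of genes, within 1.5 times the value reported. The direction of *Trim30c* reversed without Cre sample 4 (-0.0435), and its values without each sample ran from -0.0435 to 0.17. On the log2(FPKM + 1) scale the log2 fold changes of 6 of the 10 genes moved by more than the spread between replicates, to -0.78 for *Trim34a*, -0.69 for *Trim12a*, 1.43 for *Trim34b*, -0.064 for *Trim30b*, -0.32 for *Gvin1* and 0.95 for *Gm4759*, a scale on which the added 1 weighs more on low values. That of *Gm4759* was 9.43 with a pseudocount of 0.1, 8.30 with edgeR and 8.53 with DESeq2. Leaving out each sample left 8 or 9 of the 10 genes without overlap, between 4966 and 5917 genes passing over all tested, and between 9 and 12 of the 22 neighbours. Same-numbered samples correlated at 0.063, 0.098, 0.13 and 0.078 after removing the genotype means, so the numbers were not taken to pair them, and with the replicate number as a block 5597 genes passed against 5594. Replicates 2 and 3 of both genotypes and control replicate 4 correlated best with their own number, and replicate 1 of both genotypes and Cre replicate 4 did not. The block left 11 neighbours and, in the lists, 19 TRIM genes, 13 GVIN genes and GTPases, 34 interferon-stimulated genes, 13 interferon ligands, receptors and signalling genes and 4 genes around TRIM30a. The 10 large changes within 5 Mb passed under every alternative in which they were tested. Few reads limit *Trim34b* and *Gm4759* in control samples.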
